A study of Mus musculus with 58 samples.

Results

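Endoplasmic reticulum (ER) chaperone genes were followed in single blood progenitor cells of mouse bone marrow. The members were 10 genes given by name and matched by symbol to the rows of the count table: Hspa5, Hsp90b1, Calr, Canx, Pdia3, Pdia4, Pdia6, P4hb, Sdf2l1 and Xbp1. All 10 were found among the 23152 gene symbols. Cells came from the bone marrow of wild-type C57BL/6 mice and were sorted by surface markers into 2 gates. Haematopoietic stem cells of the long-term kind (LT-HSC), which keep up the blood system, were sorted as Lin- cKit+ Sca1+ Flt3- CD34- cells, and 34 were sequenced. Common myeloid progenitors (CMP), which give rise to granulocytes, monocytes, red cells and platelets, were sorted as Lin- cKit+ Sca1- CD16/32- CD34+ cells, and 24 were sequenced. No treatment, time point, age or number of animals is given in the labels, and their entry on passages is not explained for cells taken from marrow. No label ties a cell to an animal, so each gate is 1 sample of its population. Cells of 1 sample are not replicates, so no test across cells was made. Intervals of levels and ratios cover counting error only. Intervals of shares of cells cover only the drawing of cells within 1 sample.

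Proteins that are secreted, sent to granules or placed in membranes are folded in the ER. Hspa5 (BiP) and Hsp90b1 (GRP94) hold unfolded chains, calreticulin and calnexin retain glycoproteins through their sugars, and protein disulfide isomerases form and reshuffle disulfide bonds. When unfolded protein builds up, the sensors Ire1 (gene Ern1), Atf6 and Perk (gene Eif2ak3) start the unfolded protein response, in which Ire1 splices Xbp1 mRNA into the form that encodes an active transcription factor. Myeloperoxidase (Mpo), the abundant haem enzyme of primary granules, is a glycoprotein that is folded in the ER with calreticulin and calnexin, so the members were also set beside the Mpo count of each CMP.

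A promoter feature found in some of the members was the ER stress response element, CCAAT followed after any 9 bases by CCACG, to which NF-Y binds at the CCAAT part and Atf6 at the CCACG part. It was searched on both strands in the 250 bases before the RefSeq start of each gene (GRCm38.p6). It was found in 5 of 10 members, Hspa5, Hsp90b1, Calr, Canx and Pdia6, and in 37 of 32851 promoters (0.113%). With the last letter left free, so that CCAAT is followed after any 9 bases by CCAC, the element was found in 7 of 10 members, Pdia3 and Pdia4 being added, and in 0.32% of promoters. This second search includes every match of the first. The matches are printed because they are what these 7 promoters have in common, each with 5 flanking bases, on the gene's strand, with the 2 fixed parts in capitals.
Hspa5 (chr2:34772020-34772048, plus strand): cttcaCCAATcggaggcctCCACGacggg
Hsp90b1, far match (chr10:86705633-86705661, minus strand): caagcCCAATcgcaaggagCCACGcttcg
Hsp90b1, near match, motif reversed (chr10:86705528-86705556, minus strand): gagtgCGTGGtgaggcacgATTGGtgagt
Calr, motif reversed (chr8:84847070-84847098, minus strand): caacgCGTGGtcgaccctcATTGGcccat
Canx (chr11:50325795-50325823, minus strand): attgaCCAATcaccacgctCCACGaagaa
Pdia6 (chr12:17266486-17266514, plus strand): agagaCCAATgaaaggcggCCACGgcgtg
Pdia3, last letter free (chr2:121413868-121413895, plus strand): cgcagCCAATcggcggctgCCACactgc
Pdia4, last letter free, motif reversed (chr6:47813597-47813624, minus strand): accgaGTGGcagcccgtgATTGGtggtc
P4hb, Sdf2l1, Xbp1 and Mpo held neither form in this window. CCAAT alone was found in 9 of 10 members, all but Xbp1, and in 33.8% of promoters, and CCACG alone in 7 of 10 and in 28.3%. The related elements ATTGG followed after any 1 base by CCACG (0.0304% of promoters) and TGACGTGG (0.563%) were found in no member. A match describes the letters of the promoter only. The element was taken as already described for genes of ER stress, so its share among the members is no independent finding, and no test of enrichment was made. For Hspa5 and Pdia3 the RefSeq start lies downstream of the outermost GENCODE start given with the gene's coordinates, so their matches fall inside the GENCODE gene span. In the Hspa5 promoter the match lies 65 to 47 bases before the RefSeq start, upstream of a run tataa, as this stretch of 160 bases shows (chr2:34771930-34772089, plus strand):
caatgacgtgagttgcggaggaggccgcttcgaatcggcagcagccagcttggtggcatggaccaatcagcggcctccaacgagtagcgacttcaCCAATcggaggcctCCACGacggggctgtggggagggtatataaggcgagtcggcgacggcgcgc

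The cells carried the gene patterns of their gates, with limits that bear on every value below. Total counts per cell ran from 45022 to 860553 in LT-HSC (median 236774) and from 88329 to 706184 in CMP (median 290977). Ly6a, which encodes Sca1, had a pooled level of 132 CPM (counts scaled to a common total) in LT-HSC against 15.1 in CMP, and Procr, a stem cell marker, of 119 against 0.85. With each cell thinned at random to 97978 counts, which left 30 LT-HSC and 22 CMP, the median cell had counts for 3296 genes in LT-HSC and 5509 in CMP. Xist was without counts in all 34 LT-HSC and in CMP 1 and 2, and counts of Y-linked genes were found in 32 LT-HSC and 3 CMP. Gate and the sex of the donor therefore nearly coincide and cannot be told apart in the pooled values. Of 12 measured plasma cell and B cell markers, whose cells are rich in ER chaperones, 6 had no count in any cell, including Jchain, Prdm1 and Irf4. Their summed level was 0 to 500 CPM in LT-HSC and 0 to 253 in CMP, and most of the pooled level came from Cd79b, at 80.8 and 47.1 CPM. Mzb1 had 116 LT-HSC counts, all in 1 cell. Outside these markers, LT-HSC 33 held all 89 counts of Derl3 and 28.4% of the LT-HSC counts of Fkbp11. It also held the largest share of any LT-HSC for Hsp90b1 (326 of 1356 counts), Xbp1 (23.6%), Pdia4 (19.7%) and Pdia3 (18.8%), but not for the other members. These are shares of counts, and LT-HSC 33 had a total of 829389 counts, against the LT-HSC median of 236774. By CPM it was the highest LT-HSC for Hsp90b1 (393). It was not the highest for Xbp1 (187, against 339 in LT-HSC 19), Pdia4 (59.1, against 240 in LT-HSC 28) or Pdia3 (603, against 664 in LT-HSC 24). Whether LT-HSC 33 is a cell of another type was not tested.

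ER chaperone RNA was higher in CMP than in LT-HSC. Pooled over the cells of a gate, the 10 genes together held 15532 counts in LT-HSC, or 1564 CPM (interval 1539 to 1589), and 19690 counts in CMP, or 2788 CPM (interval 2749 to 2827). The ratio was 1.78-fold, a log2 ratio of 0.83 (interval 0.80 to 0.86). Calr gave 21.7% of the summed counts in LT-HSC and 22.7% in CMP, so the sum does not follow 1 gene alone. In single cells the sum ran from 287 CPM (LT-HSC 26) through a median of 1389 to 2897 (LT-HSC 18) in LT-HSC, and from 1103 (CMP 14) through 2692 to 5032 (CMP 9) in CMP. The gates overlapped: 23 of 24 CMP lay above the LT-HSC median and 9 lay above every LT-HSC, while 10 of 34 LT-HSC lay below every CMP and 3 lay above the CMP median.

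**Figure D1:**
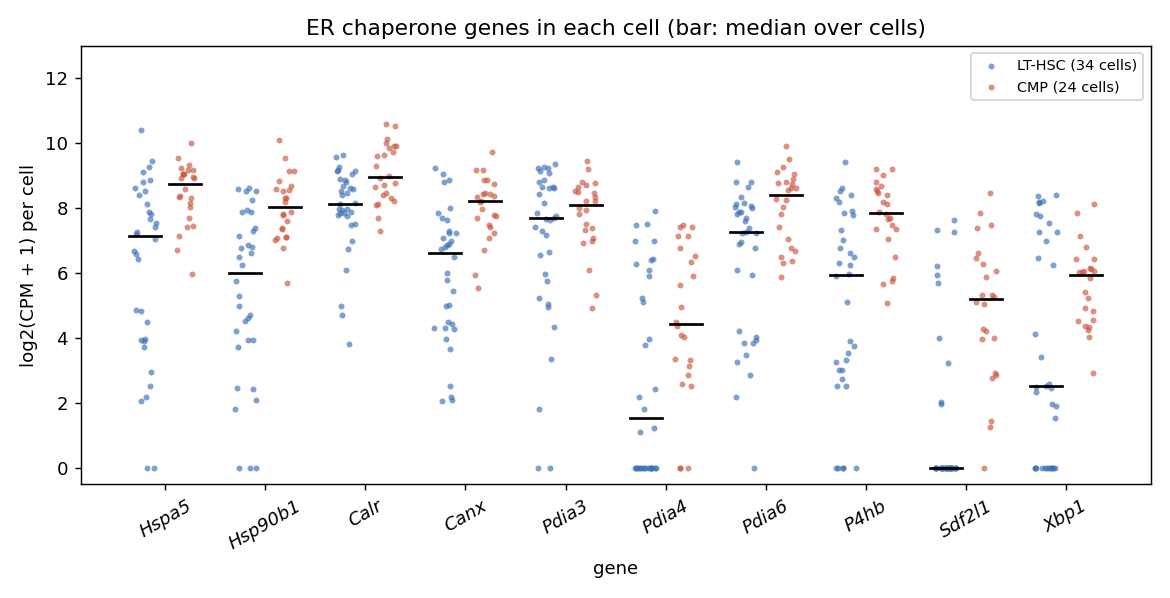
Level of each ER chaperone gene in each cell, as log2(CPM + 1) on the vertical axis, with LT-HSC and CMP side by side for every gene and a bar at the median over cells. The CMP points sit in a narrower band with a higher median for Hspa5, Hsp90b1, Calr and Canx. For Pdia4, Sdf2l1 and Xbp1 many LT-HSC lie at or near 0. No CMP lies above the highest LT-HSC for Hspa5, Pdia4, P4hb or Xbp1.

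Each member had a higher pooled CPM in CMP, though 2 of them by little. The log2 ratios of CMP over LT-HSC ran from 0.05 for Xbp1 to 1.57 for Pdia4, with a median of 0.91. Over the 10937 genes with at least 20 counts in both pools together the median was 0.13, and over the 3272 genes with at least as many pooled counts as the least counted member it was 0.02. Hspa5, Hsp90b1, Canx and Pdia4 were at least 2-fold higher in CMP, that is 4 of 10 members, beside 28.1% of the 10937 genes and 13.3% of the 3272. None passed 2-fold on the LT-HSC side, beside 22.7% and 11.9%. All 10 were on the CMP side of 0, beside 53.9% and 50.8%. With each cell thinned to equal depth, 7 of 10 passed 2-fold on the CMP side, beside 14.9% of the 3272 genes, and 9 were higher in CMP, beside 53.7%, while Xbp1 turned to −0.39. Without CMP 1 and 2, 6 members passed 2-fold (14% of genes) and all 10 were higher in CMP (51.3%). Among LT-HSC, 2 blocks of cells, 1 to 16 and 17 to 34, were also compared with CMP separately, a division by cell number that no label gives and that was chosen in an earlier examination of these cells. Against the first block 7 members passed 2-fold (24.1%) and 9 were higher in CMP (58.9%), all but Xbp1, and against the second 3 passed (13.6%) and 9 were higher (48.6%), all but Pdia3. With CMP 1 and 2 as the only CMP, which leaves no cell with an Xist count in either pool, the median was 0.24, beside −0.22 for the 3272 genes. There 3 members passed 2-fold on the CMP side (12.6% of genes), 7 lay on the CMP side (42%), and Pdia3, Xbp1 and Sdf2l1 were lower in CMP.

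**Figure D2:**
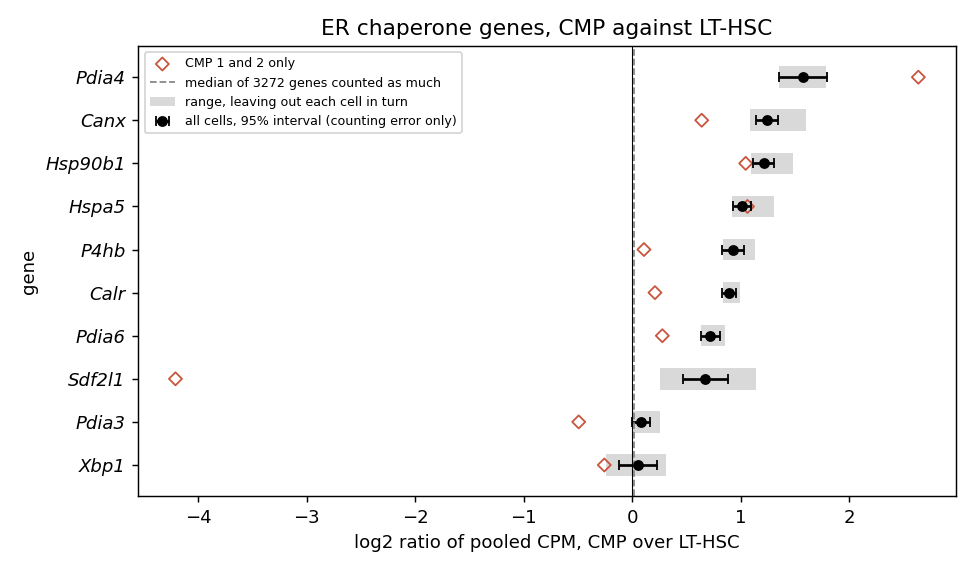
Log2 ratio of pooled CPM, CMP over LT-HSC, for each ER chaperone gene (horizontal axis), for all cells with the 95% counting interval (points and bars), the range when each cell is left out (grey bands), CMP 1 and 2 only against LT-HSC (diamonds) and the median of 3272 genes (dashed line). Pdia4, Canx, Hsp90b1 and Hspa5 lie past 1, Pdia3 and Xbp1 lie near 0, and Sdf2l1 moves from 0.67 to −4.21 when only cells without an Xist count are kept.

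The chaperones that bind unfolded chains were among the higher genes in CMP. Hspa5, the Hsp70 of the ER (chromosome 2, 34771970 to 34777547, plus strand, mm10), had 0 to 1353 CPM in LT-HSC cells with a median of 140, and 62.3 to 1034 in CMP with a median of 435. Of the 24 CMP, 22 exceeded the LT-HSC median but none exceeded LT-HSC 23, the highest stem cell. Pooled, Hspa5 went from 211 CPM in LT-HSC to 427 in CMP, 2.02-fold higher (log2 ratio 1.01, interval 0.93 to 1.10). It fell short of 2-fold by the mean over cells (log2 ratio 0.94), with median-of-ratios scaling (0.88), with totals without ribosomal protein genes (0.97) and with thinned cells (0.93). Hspa5 also differed among LT-HSC: cells 1 to 16 were at 110.3 CPM and cells 17 to 34 at 264. Against the first block its log2 ratio was 1.95 and against the second 0.69. Hsp90b1, the Hsp90 of the ER (chromosome 10, 86690209 to 86705509, minus strand), had 0 to 393 CPM in LT-HSC with a median of 64.6, and 51.0 to 1102 in CMP with a median of 266. Here 23 of 24 CMP exceeded the LT-HSC median and 6 exceeded every LT-HSC. Pooled levels were 137 and 317 CPM, 2.32-fold higher in CMP (log2 ratio 1.21, interval 1.12 to 1.31). The gene overlaps 1810014B01Rik on the other strand, which has 992 counts of its own in the table, and the use of strand in counting is not given in the sources used here.

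Sdf2l1, a partner of Hspa5 that keeps its clients soluble (chromosome 16, 17130138 to 17132383, minus strand), was detected mainly in CMP. It had no count in 24 of 34 LT-HSC, with a highest level of 200 CPM in LT-HSC 22, and a count in 23 of 24 CMP, with a median of 35.7 and a highest level of 355 CPM in CMP 7. The pooled levels of 35.8 and 57.2 CPM gave a log2 ratio of 0.67 (interval 0.47 to 0.88), which was 0.26 without CMP 7 and 1.14 without LT-HSC 34. LT-HSC 1 to 16 held 5 Sdf2l1 counts and LT-HSC 17 to 34 held 351, while CMP 1 and 2 held 2 and the other CMP held 402. Its few counts in both LT-HSC 1 to 16 and CMP 1 and 2 mean that its ratio depends on which cells are pooled.

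The glycoprotein-binding chaperones Calr and Canx were higher in CMP, and Pdia3, the oxidoreductase that works with them, was close to equal. Calr (chromosome 8, 84841850 to 84846934, minus strand), the soluble calreticulin, had 13.1 to 799.6 CPM in LT-HSC with a median of 282, and 157 to 1539 in CMP with a median of 502. It had a count in every cell of both gates, and 8 CMP lay above every LT-HSC. Pooled, Calr stood at 339.7 and 632 CPM (log2 ratio 0.90, interval 0.83 to 0.96). With only cells without an Xist count the log2 ratio was 0.21. Canx (chromosome 11, 50293961 to 50325673, minus strand), the membrane-bound calnexin, had 3.21 to 602 CPM in LT-HSC with a median of 98.0, and 46.0 to 848 in CMP with a median of 297. Only CMP 19 lay above every LT-HSC, and 4 LT-HSC lay above the CMP median. Pooled, Canx stood at 138 and 327 CPM (log2 ratio 1.24, interval 1.15 to 1.34), and it reached 1.60 without LT-HSC 34 and fell short of 2-fold with only cells without an Xist count (0.64). Pdia3 (chromosome 2, 121413775 to 121438687, plus strand) had 0 to 664 CPM in LT-HSC with a median of 207, and 29.6 to 697 in CMP with a median of 276. Its ranges nearly coincide, and 14 of 34 LT-HSC exceeded the CMP median. Pooled, Pdia3 stood at 268 and 284 CPM (log2 ratio 0.08, with a counting interval whose lower end is at 0), and the sign turned without LT-HSC 34 and with median-of-ratios scaling (−0.05).

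The other disulfide isomerases were higher in CMP by different amounts. Pdia4 (ERp72, chromosome 6, 47796141 to 47813430, minus strand) had the largest pooled ratio of the members and few counts. It had 0 to 240 CPM in LT-HSC with a median of 1.96, and 0 to 179 in CMP with a median of 20.6. No CMP exceeded the highest LT-HSC, but 21 of 24 exceeded the LT-HSC median. The pooled levels of 25.1 and 74.8 CPM differed 2.98-fold (log2 ratio 1.57, interval 1.36 to 1.80), and CMP 1 held 22.7% of the CMP counts. By the mean over cells Pdia4 stood at 39.3 and 55.5 CPM, under 2-fold (log2 ratio 0.50). Pdia6 (P5, chromosome 12, 17266545 to 17284770, plus strand), which works with Hspa5, had 0 to 685 CPM in LT-HSC with a median of 152, and 57.6 to 966 in CMP with a median of 341. Of the CMP, 17 of 24 exceeded the LT-HSC median and 2 exceeded every LT-HSC. Pooled, Pdia6 stood at 208 and 342 CPM (log2 ratio 0.72, interval 0.63 to 0.81). P4hb (chromosome 11, 120560298 to 120573253, minus strand), protein disulfide isomerase itself and also a subunit of prolyl 4-hydroxylase, had 0 to 684 CPM in LT-HSC with a median of 60.6, and 32.8 to 589 in CMP with a median of 230.0. No CMP exceeded LT-HSC 24, the highest stem cell. Pooled, P4hb stood at 136 and 258 CPM (log2 ratio 0.93, interval 0.83 to 1.03), and LT-HSC 1 to 16 were at 77.7 CPM against 166 in LT-HSC 17 to 34.

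Xbp1, the transcription factor of the group (chromosome 11, 5520659 to 5525893, plus strand), differed in its spread over cells more than in its pooled level. It had no count in 11 of 34 LT-HSC, a median of 4.71 CPM and a highest level of 339 CPM in LT-HSC 19. Each of the 24 CMP had a count, from 6.56 to 280 CPM with a median of 60.3. Every CMP lay above the LT-HSC median, none lay above the highest LT-HSC, and 13 LT-HSC lay above the CMP median. The pooled levels were 66.3 and 68.8 CPM (log2 ratio 0.05, interval −0.12 to 0.23). The mean over cells put LT-HSC higher, at 83.2 against 68.8 CPM. Leaving out 1 cell moved the log2 ratio between −0.24 (without CMP 20) and 0.32 (without LT-HSC 33), with no stable direction. LT-HSC 1 to 16 were at 114 CPM and LT-HSC 17 to 34 at 41.4. Hsp90b1 had the same order by a smaller difference (146 and 132 CPM), and the remaining members had the reverse order in pooled CPM. By the median over cells, Canx, Pdia3 and Pdia6 were also higher in LT-HSC 1 to 16. The counts do not separate spliced from unspliced Xbp1 mRNA.

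More members were found at solid counts in a CMP than in an LT-HSC. At least 10 counts were held for a median of 5 of the 10 genes in LT-HSC (range 1 to 9) and of 8.5 in CMP (range 5 to 10). Hspa5, Hsp90b1 and Calr reached 10 counts in all 24 CMP (100%, exact Clopper-Pearson interval 85.8% to 100%). Of the 34 LT-HSC, Calr reached 10 counts in 32 (94.1%, interval 80.3% to 99.3%), Hspa5 in 22 (64.7%, interval 46.5% to 80.3%) and Hsp90b1 in 18 (52.9%, interval 35.1% to 70.2%). These intervals treat each cell as a separate draw from 1 sample and do not cover differences between animals. The share of cells was larger in CMP for 10 of 10 members, beside 80.1% of the 3272 genes as highly counted, so most genes shared this direction. After thinning it was larger for 9 of 10, beside 61.3% of genes, and the members' median share was 40% of LT-HSC and 86.4% of CMP, beside 33.3% and 40.9% for the 3272 genes. Xbp1 was the exception, with at least 10 counts in 10 of 30 thinned LT-HSC and 3 of 22 thinned CMP. In the thinned cells Hsp90b1 reached 10 counts in 12 of 30 LT-HSC and 20 of 22 CMP, and Canx in the same numbers of cells.

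Other parts of the folding and export machinery differed in both directions, and some of their genes by more than any member. Among 13 co-chaperones and exchange factors of Hspa5 with at least 20 counts, 3 passed 2-fold towards CMP, 3 towards LT-HSC and 7 neither, at a median log2 ratio of 0.37, and both counts are near the shares of all 10937 genes, 28.1% and 22.7%. Hyou1, an exchange factor of the Hsp110 family, had 1.11 CPM in LT-HSC against 23.6 in CMP (log2 ratio 4.36, interval 3.54 to 5.45). Sdf2, the relative of Sdf2l1, had the opposite pattern, at 165 CPM in LT-HSC against 37.8 in CMP (log2 ratio −2.12, interval −2.32 to −1.94). Sil1, another exchange factor, was lower in CMP (log2 ratio −1.20), and Dnajb11, a J protein of Hspa5, was at 32.9 and 49.8 CPM (log2 ratio 0.60). Among 14 other thiol oxidoreductases the median was 0.38, with 2 past 2-fold in each direction. Erp29 was at 121 and 237 CPM (log2 ratio 0.97), whereas Prdx4, an ER peroxiredoxin, was at 206 and 91.5 (log2 ratio −1.17). Ero1l, which reoxidises the isomerases, was at 1.21 and 15.6 CPM (log2 ratio 3.64), and at 4.32 without LT-HSC 10. The prolyl isomerases lay on the LT-HSC side, with a median of −0.82 over 7 genes, of which 3 passed 2-fold towards LT-HSC and 1 towards CMP. Ppic had 182 CPM in LT-HSC against 40.4 in CMP (log2 ratio −2.17).

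Lists for translocation, glycosylation and coat proteins had medians from 0.19 to 0.43. Of 22 genes for translocation and signal peptide cleavage, 6 passed 2-fold towards CMP and 2 towards LT-HSC, at a median log2 ratio of 0.27, beside 28.1% and 22.7% of all genes, so the count towards CMP is near the background. Sec61a1, the channel subunit, was at 35.0 and 125 CPM (log2 ratio 1.83), Spcs3 of the signal peptidase at 53.5 and 158 (log2 ratio 1.56), and Srprb, a signal recognition particle receptor subunit, at 68.8 and 24.4 (log2 ratio −1.49). Of 17 N-glycan genes, 3 passed 2-fold towards CMP, 1 towards LT-HSC and 13 neither (median 0.19). Rpn1, a subunit of oligosaccharyltransferase, was at 110 and 231 CPM (log2 ratio 1.06). Of 21 KDEL receptor and coat protein genes, 3 passed 2-fold towards CMP and 1 towards LT-HSC (median 0.43), with Copa, a COPI coat subunit that serves return to the ER, at 37.6 and 143 CPM (log2 ratio 1.92). The 31 chaperones of the cytosol and mitochondria, set beside the ER members as folding genes of other compartments, had a median of 0.32, with 6 past 2-fold towards CMP and 2 towards LT-HSC.

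**Figure D3:**
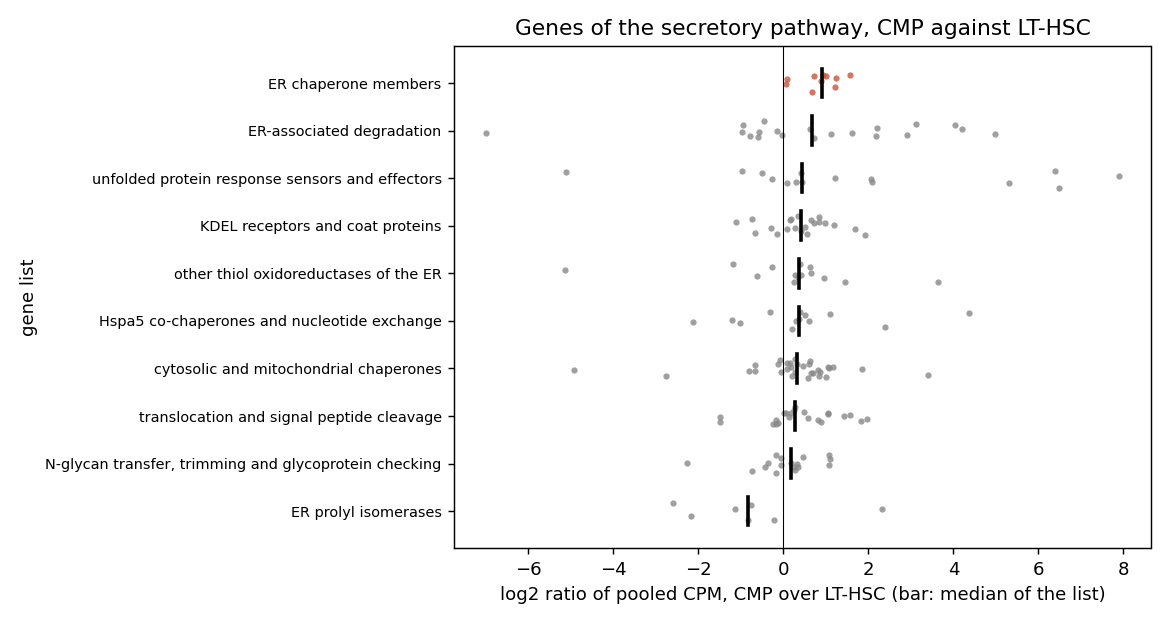
Log2 ratio of pooled CPM, CMP over LT-HSC (horizontal axis), for each gene with at least 20 counts in each list of the secretory pathway and of other chaperones, with a bar at the list's median. Ern1 (0 LT-HSC counts) and Derl3 (0 CMP counts) are placed by the added 0.5. The 10 ER chaperone genes lie between 0.05 and 1.57 with a median of 0.91, while the other lists spread to both sides of 0, and the prolyl isomerases have a median of −0.82.

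Genes of the unfolded protein response and of ER-associated degradation held some low-count genes that were found almost only in CMP. Of 15 response genes, 7 passed 2-fold towards CMP, 1 towards LT-HSC and 7 neither (median log2 ratio 0.44), beside 28.1% and 22.7% of all genes. Ern1, the sensor that splices Xbp1, had 0 counts in LT-HSC and 84 in CMP, spread over 8 cells. The lower end of the counting interval of its log2 ratio was 4.97. Ppp1r15b, a constitutive eIF2α phosphatase subunit, was at 9.26 and 38.7 CPM (log2 ratio 2.06), and Mbtps1, the protease that cleaves Atf6, at 7.95 and 34.1 (log2 ratio 2.09, and 2.70 without LT-HSC 30). In contrast Ddit3 (CHOP), a stress-induced transcription factor, had 42.2 CPM in LT-HSC against 21.5 in CMP (log2 ratio −0.97), and Ppp1r15a at 101 and 71.5 (log2 ratio −0.50). Of 20 degradation genes, 9 passed 2-fold towards CMP, 1 towards LT-HSC and 10 neither (median 0.68), beside the same 28.1% and 22.7%. Edem1, which passes misfolded glycoproteins to degradation, was at 0.91 and 30.0 CPM (log2 ratio 4.98), and Sel1l, the scaffold of the Hrd1 ligase, at 2.42 and 40.4 (log2 ratio 4.03, and 5.21 without LT-HSC 22). Herpud1, a further component, was lower in CMP, at 99.8 and 58.2 CPM (log2 ratio −0.78). The smaller number of genes detected in thinned LT-HSC, 3296 against 5509, moves with these low-count ratios, and its part in them was not tested.

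Within the CMP gate, cells with more Mpo RNA tended to have more ER chaperone RNA. Mpo (chromosome 11, 87793581 to 87804413, plus strand) ran from 88.9 CPM in CMP 6 through a median of 2309 to 6903 in CMP 12. Over the 24 CMP the summed chaperone CPM had a Spearman rho of 0.46 with Mpo CPM, and a Pearson r of 0.54 on log2(CPM + 1). The points share a gate and each cell's total count, and the coefficient is a description with no p-value. CMP 12 had the highest Mpo level and the second highest chaperone sum (4944 CPM), and CMP 9 had 3878 CPM of Mpo and the highest sum (5032). At the low end, CMP 14 had 125 CPM of Mpo and the lowest sum (1103), and CMP 6 had a sum of 1436. CMP 7 and CMP 13 went the other way, CMP 7 with 105 CPM of Mpo and a sum of 3848, and CMP 13 with 4200 CPM of Mpo, the second highest, and a sum of 2259. The Spearman coefficient ranged from 0.38 without CMP 12 to 0.58 without CMP 7, and was 0.31 without CMP 12 and CMP 6, the cells farthest from the median Mpo level, so the relation rests in part on them. It was 0.41 without CMP 1 and 2, 0.39 over the 22 thinned CMP and 0.47 with chaperone CPM taken over totals without granule cargo genes.

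**Figure D4:**
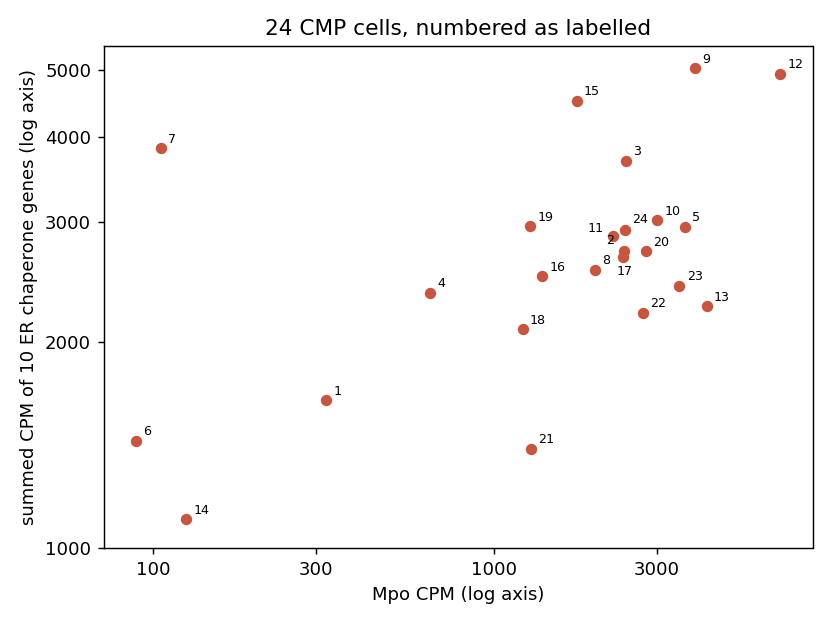
Summed CPM of the 10 ER chaperone genes (vertical, log axis) against Mpo CPM (horizontal, log axis) in each of the 24 CMP, labelled with the cell's number. The cells with the least Mpo, CMP 6, 14 and 7, have sums of 1436, 1103 and 3848 CPM, and CMP 12, with the most, has 4944.

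Each of the 10 members had a rho above 0 with Mpo, beside 48.9% of the 6161 genes with at least 100 counts and a count in at least 12 CMP and 49.5% of the 2813 genes with at least as many CMP counts as the least counted member. The members' median was 0.29 beside −0.01 for the 6161 genes. All were set against the same Mpo values, and 41 of the 45 member pairs had a rho above 0 over these cells. The 10 signs are therefore not separate observations. P4hb (0.49), Pdia6 (0.47) and Xbp1 (0.47) had a rho of at least 0.4, that is 3 of 10, beside 3.8% of genes and 5.01% of the 2813. P4hb ran from 0.42 to 0.56 when 1 cell was left out, Pdia6 from 0.41 to 0.64, and Xbp1 from 0.41 to 0.55. Sdf2l1 (0.34), Calr (0.31) and Hspa5 (0.27) came next, and Canx (0.19), Pdia3 (0.16) and Pdia4 (0.15) were lower. Hsp90b1 was lowest at 0.08, and stood at −0.01 without CMP 1 and 2. The order of the members by rho thus differed from their order by pooled gate ratio. Pdia4, Canx and Hsp90b1, with the largest pooled ratios, had the lowest rho values together with Pdia3, whereas Xbp1, with the smallest, was among the highest. The order by ratio depends on the measure: by the mean over cells Sdf2l1 had the largest log2 ratio (1.62) and Pdia4 was at 0.50. Primary granule cargo gave values on the same scale, at 0.84 for Prtn3 and 0.81 for Ctsg, serine proteases stored with Mpo, but 0.34 for Elane, 0.04 for Cst7 and −0.04 for Srgn, the granule proteoglycan. The chaperone sum itself had a rho of 0.39 with Prtn3, 0.42 with Ctsg and −0.07 with Elane. With the summed cargo genes its rho was 0.10 when Mpo was left out and 0.25 when Mpo was included.

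**Figure D5:**
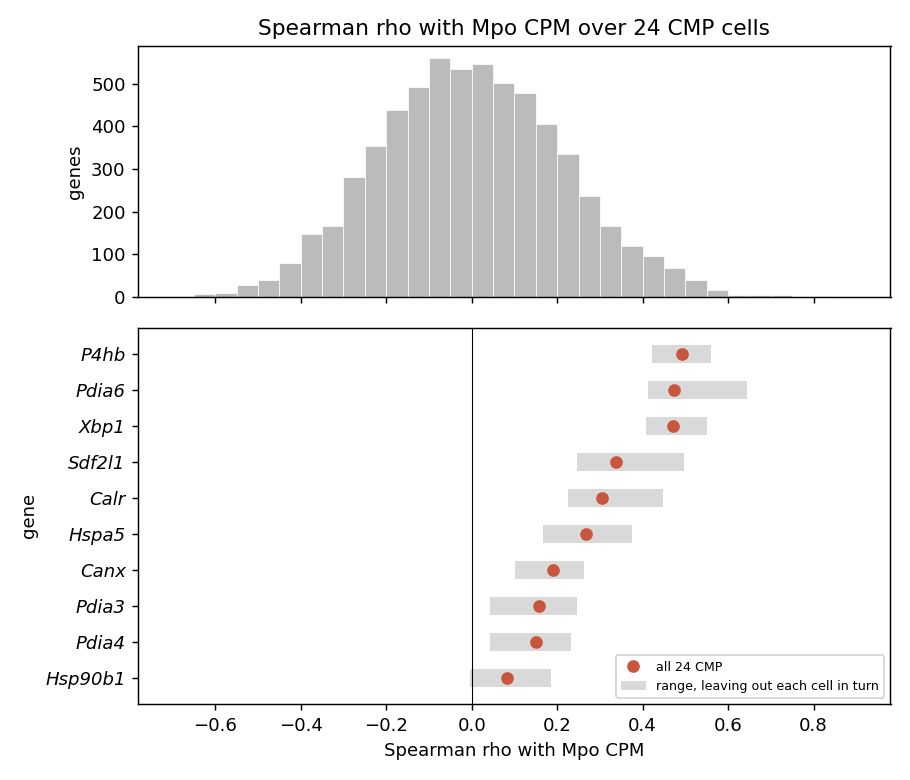
Spearman rho with Mpo CPM over the 24 CMP: the upper panel counts all 6161 genes in bins of rho, and the lower panel shows each ER chaperone gene with its range when 1 cell is left out. All 10 points lie above 0, from 0.08 for Hsp90b1 to 0.49 for P4hb, and the range of Hsp90b1 reaches below 0.

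Other measures moved with the Mpo level of a CMP. The summed granulocyte-monocyte progenitor markers had a rho of 0.79 with Mpo and 0.38 with the chaperone sum. These markers include the cargo genes Elane, Prtn3, Ctsg, Cst7 and Ms4a3, so 0.79 partly repeats the values of those genes with Mpo. The erythroid-megakaryocyte progenitor markers had a rho of −0.46 with Mpo and −0.30 with the chaperone sum. CMP 6 and CMP 7, with the least Mpo, had 13454 and 11621 CPM of the erythroid-megakaryocyte markers, against a CMP median of 927. CMP 14, with the next lowest Mpo level (125 CPM), had 1188 CPM of them. CMP 7 also had 5940 CPM of mature neutrophil markers, against a CMP median of 530. CMP 13 and CMP 15 had 2996 and 3894 CPM of mast cell or basophil markers, against a CMP median of 67.4. The place of a cell along these lines and its Mpo level cannot be told apart here. Total counts had a rho of −0.07 with Mpo and 0.16 with the sum, and cycling cell markers 0.12 and −0.09. Chaperones of the cytosol and mitochondria had a rho of 0.40 with the ER chaperone sum but −0.16 with Mpo. Other ER thiol oxidoreductases were at 0.51 with the sum and 0.45 with Mpo, translocation genes at 0.32 and 0.37, and N-glycan genes at 0.28 and 0.39. The unfolded protein response list was on the other side of 0, at −0.26 with the sum and −0.51 with Mpo. These are values of each list's summed CPM, to which Atf4 gave 289 of 647 CPM in the response list. Gene by gene, the median rho with Mpo was −0.06 for the response list (3 of 10 above 0) and 0.12 for the oxidoreductases (7 of 10). It was 0.16 for translocation genes (15 of 21), 0.07 for N-glycan genes (9 of 16) and 0.05 for cytosolic and mitochondrial chaperones (15 of 27). In LT-HSC, where 16 of 34 cells had no Mpo count, the chaperone sum had a rho of 0.12 with Mpo.

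The members varied together loosely from cell to cell. Over the 24 CMP their 45 pairs had a median rho of 0.22, from −0.19 for Hspa5 with Canx to 0.46 for Hsp90b1 with Calr, and 41 pairs lay above 0, beside 54.4% of all pairs of 6162 genes, whose median was 0.02. Hspa5 and Calr stood at 0.44. In LT-HSC, where Sdf2l1 had counts in too few cells, the 36 pairs of 9 members had a median of 0.11, and 25 lay above 0, beside 54.2% of all pairs. All these pairs share the cells' totals. Among genes outside the list, those most like the summed chaperone CPM over the 24 CMP were Mboat7 (rho 0.78), Ufl1 (0.66), Prr12 (0.66), Gm561 (0.64) and Smad4 (0.64), out of 6152 genes. Over the 34 LT-HSC they were Elmo1 (0.59), Pbdc1 (0.59), Mrpl20 (0.54), Wrn (0.52) and Psmd14 (0.52), out of 3337 genes. In LT-HSC the 5 genes named for CMP had rho values from −0.19 to 0.20, and in CMP the 5 named for LT-HSC had values from −0.17 to 0.49, the highest being Mrpl20.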

How the data were processed

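Single sorted cells were converted to cDNA by a variant of Smart-seq2 with a cell barcode and a molecular identifier on the oligo(dT) primer, and 3' ends were captured, per the labels' protocols. The table the authors deposited gives raw counts per gene symbol (rows) and cell (columns). The submitters' processing notes name mm10, TopHat2 2.0.12, HTSeq and Seurat 2.0. Whether the counts are molecules or reads is not given in the sources used here. Of the non-zero values, 25.3% equal 1 and 47.9% are at least 10, and amplification would make true errors larger than the counting intervals.

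All 58 columns were matched to cells by name and used. No cell was removed, doublets were not called because cells were sorted singly, and no 2 columns were identical. Counts were summed per gate and divided by the gate total (9931131 in LT-HSC, 7062737 in CMP) to give CPM. Log2 ratios used 0.5 added to each count, with exact conditional binomial 95% intervals. CPM intervals were exact Poisson, and shares of cells had exact Clopper-Pearson intervals. For detection at equal depth, cells were thinned to 97978 counts, the 10th percentile of totals. Relations over cells are given as Spearman coefficients. CPM from 3' ends were not used to rank genes by abundance. Summed CPM and shares of a sum weight each gene by its counts.

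The members, lists and alternatives were chosen with earlier results of these data known. All members are named. From each list, named genes are among up to 3 per direction with the largest log2 ratios, from genes with at least 50 counts, 1 direction by both pooled and mean CPM, and no cell with over 50% of the higher pool's counts. Python 3.11.15, numpy 2.4.6, pandas 2.3.3 and scipy 1.17.1 were used, and the ratio and rho functions were tested on simulated data. Gene coordinates are from GENCODE M21. Promoters are from the RefSeq table for GRCm38.p6, in which all 10 members and Mpo were matched by symbol.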

Additional observations from a re-analysis of the deposited data

How the results depend on the processing

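The median log2 ratio of the members (0.91) was 0.78 with median-of-ratios scaling, 1.08 with thinned cells, 1.01 without CMP 1 and 2, 0.24 with only cells without an Xist count, 1.35 with LT-HSC 1 to 16 only and 0.71 with LT-HSC 17 to 34 only, and 0.85 to 1.06 with 1 cell left out. Median-of-ratios scaling shifts every ratio by 0.13. The number of members at least 2-fold higher in CMP (4, beside 13.3% of the 3272 genes) was 7 with thinned cells (14.9%) and 7 with LT-HSC 1 to 16 only (24.1%). It was 3 to 5 with 1 cell left out. The log2 ratio of the sum (0.83) was 0.90 by the mean over cells, 0.70 with median-of-ratios scaling, 0.78 with totals without ribosomal protein genes, 0.95 with thinned cells, 0.91 without CMP 1 and 2, 0.45 with only cells without an Xist count, 1.17 and 0.68 with the first and second LT-HSC block only, and 0.78 to 0.96 with 1 cell left out. The rho of the sum with Mpo (0.46) was 0.31 without the 2 cells farthest from the median Mpo level, 0.38 without Pdia6 in the sum, and 0.38 to 0.58 with 1 cell left out.

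Signs turned for Xbp1 by the mean over cells (−0.27), with median-of-ratios scaling (−0.078), thinned cells (−0.39), only cells without an Xist count (−0.26) and LT-HSC 1 to 16 only (−0.73), and with 1 of 7 cells left out (range −0.24 to 0.32). They turned for Pdia3 with median-of-ratios scaling (−0.048), only cells without an Xist count (−0.49), LT-HSC 17 to 34 only (−0.086) and without LT-HSC 34 (−0.00066; range to 0.26), for Sdf2l1 with only cells without an Xist count (−4.21), and for the rho of Hsp90b1 without CMP 1 and 2 (−0.014) and without CMP 1 or CMP 18 (range −0.0049 to 0.19). The causes were not tested. Of 160 single-gene values under alternatives other than leaving out a cell, 94 stayed within their intervals or leave-one-out ranges, 56 moved past them and 10 changed sign. No paired analysis was possible because the numbers shared by the gates only name cells. With 1 sample per gate, differences between animals cannot be estimated, and the cells without an Xist count leave only 2 CMP.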

Other observations

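Serp1, a small ER membrane protein that stabilises newly made membrane proteins, was on none of the lists and, like Pgam1 and Anxa2, was picked out after its values were seen. Over the 24 CMP its rho with Mpo was 0.72, the fifth highest of 6161 genes, after Prtn3, Ctsg, Pgam1 and Anxa2. Its pooled level differed little between the gates, at 138 CPM in LT-HSC against 166 in CMP (log2 ratio 0.27), and its rho with the summed ER chaperone CPM was 0.32. In this it resembled Xbp1, which was near equal between the pools and had a rho of 0.47 with Mpo.

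Among cytosolic chaperones, Hsph1, an Hsp110 exchange factor, had 7.85 CPM in LT-HSC against 84.1 in CMP (log2 ratio 3.41, and 4.58 without LT-HSC 14). Hyou1, its counterpart in the ER, also had a positive log2 ratio of 4.36. Dnajb1, a J protein of the heat shock response, was lower in CMP, at 115 and 72.6 CPM (log2 ratio −0.67), and Dnajb6 was higher, at 134 and 281 (log2 ratio 1.07), with a rho of 0.46 with Mpo over the CMP.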
